A study of Mus musculus with 4 samples.

Results

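The mammalian circadian clock was described through 10 of its genes (Arntl, Clock, Npas2, Per1, Per2, Per3, Cry1, Cry2, Nr1d1 and Dbp) among the 31053 genes counted. They were chosen by name, as the core of the clock and its best known outputs, and all 10 were present in the files. The data were single-nucleus RNA-seq libraries of mouse brain, 4 in all, with 1 library per group. Pooled nuclei came from adult male C57BL/6J mice, 8 weeks old, with 5 mice in each pool. One pool had received AAV-VEGF-C, an adeno-associated virus that makes mouse vascular endothelial growth factor C, a growth factor of lymphatic vessels, and the other AAV-CTRL, a virus encoding a soluble part of the receptor VEGFR-3 that does not bind it. Both viruses were delivered into the cisterna magna, a fluid space under the cerebellum, so that all groups carried a vector and none was untreated. A cortex-labelled and a striatum-labelled library were made for each virus, and both libraries of a virus came from the same 5 mice. The time of day of tissue collection was not given in the sources used here.

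Clock genes form a feedback loop. BMAL1, the product of Arntl, pairs with CLOCK or with its relative NPAS2 and switches on the Per and Cry genes, whose proteins in turn block that pair. The same pair drives Nr1d1, which encodes REV-ERB alpha, a repressor of Arntl, and Dbp, a transcription factor of the output path. In many tissues Arntl RNA therefore peaks at another time of day than Per, Nr1d1 and Dbp RNA, and the suprachiasmatic nucleus of the hypothalamus keeps the clocks of the body in step.

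The loop acts through short promoter elements, and these are shown for the 3 members in which a search of the 250 bases before the start of transcription found an E-box (CACGTG, bound by the BMAL1 pairs) or a D-box (TTATGTAA or TTATGCAA, bound by DBP and its relatives). The search covered both strands of RefSeq promoters on GRCm38.p6 and also included AGGTCA, the site bound by ROR and REV-ERB receptors. Matches are in capitals, and each sequence reads 5′ to 3′ on the strand of its gene.
Per1, chr11:69098699-69098948, plus strand: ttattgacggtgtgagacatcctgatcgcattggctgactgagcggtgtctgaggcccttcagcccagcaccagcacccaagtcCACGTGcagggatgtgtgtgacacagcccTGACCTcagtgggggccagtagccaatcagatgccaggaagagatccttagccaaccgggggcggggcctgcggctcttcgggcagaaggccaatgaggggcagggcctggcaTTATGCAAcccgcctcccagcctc
Per3, chr4:151044666-151044915, minus strand: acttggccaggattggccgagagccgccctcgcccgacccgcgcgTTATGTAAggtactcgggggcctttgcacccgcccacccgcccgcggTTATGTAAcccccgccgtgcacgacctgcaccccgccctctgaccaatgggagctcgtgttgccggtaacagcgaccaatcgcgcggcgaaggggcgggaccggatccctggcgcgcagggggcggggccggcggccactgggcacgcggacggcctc
Cry1, chr10:85185055-85185304, minus strand: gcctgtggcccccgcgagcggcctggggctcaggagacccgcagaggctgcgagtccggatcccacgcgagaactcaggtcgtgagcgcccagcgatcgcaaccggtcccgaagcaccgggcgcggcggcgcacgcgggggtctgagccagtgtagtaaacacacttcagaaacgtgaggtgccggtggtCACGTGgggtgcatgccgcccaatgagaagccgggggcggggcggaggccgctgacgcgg
In the Per1 entry shown the E-box began 166 bases before the start, AGGTCA 137 bases and the D-box 24 bases before it. The other Per1 entry (chr11:69099902-69100151) held none of these elements. Per3 held 2 D-boxes, 205 and 158 bases before its start, and Cry1 had an E-box at 60 bases. Of 9 members with an entry in the table, 2 held the E-box, 2 the D-box and 2 AGGTCA in at least 1 entry. Clock was the other holder of AGGTCA, in 1 of its 3 entries. Of all 27025 genes in the table, 6.86% held the E-box in at least 1 promoter, 1.79% the D-box and 15.8% AGGTCA.

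The libraries held 17168 to 23724 nuclei and 63165470 to 78332657 unique molecular identifiers (UMIs, each standing for 1 captured RNA molecule), and 72931 of 78728 nuclei were kept after removal of called doublets. Nuclei were grouped with markers into classes, named "-like" since no annotation was used, and 10 classes had at least 100 nuclei in each of the 4 libraries. The striatum label did not match its defining markers. Nuclei of the striatal projection neuron-like class numbered 1388 and 1670 in the cortex-labelled libraries and 556 and 392 in the striatum-labelled ones, and the summed level of the 10 striatal markers was 2052 to 2095 counts per 1000000 UMIs (CPM) against 1063 to 1071 CPM. Cortical excitatory neuron-like nuclei numbered 6045 and 7086 under the cortex label and 284 and 87 under the striatum label. Any 2 libraries shared 76 to 118 barcodes. Regions are therefore called by label only, and in whole libraries fewer nuclei of a type and less RNA per nucleus cannot be told apart. With 1 library per group no test of a condition was made, and all 95% intervals given here cover counting error only.

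Arntl (chr7:113207465-113314126, plus strand), the activator without which the loop does not run, measured 93.8 CPM with AAV-CTRL and 87.5 CPM with AAV-VEGF-C under the cortex label, and 63.2 and 64.1 CPM under the striatum label. Clock (chr5:76209868-76304792, minus strand) had 115, 115, 122 and 119 CPM in that order, with the smallest spread over libraries of the 10 members. Npas2 (chr1:39193731-39363236, plus strand), which stands in for Clock in the forebrain, had 167 CPM in both cortex-labelled libraries and 79.6 and 79.5 CPM in the striatum-labelled ones.

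Among the repressors, Per1 (chr11:69095217-69109960, plus strand) measured 35.8 and 35.1 CPM under the cortex label and 24.8 and 24.4 CPM under the striatum label. Per2 (chr1:91415982-91459324, minus strand) had 28.3, 26.1, 20.9 and 19.0 CPM in the same order of libraries. Per3 (chr4:151003652-151044665, minus strand) had 33.5, 34.5, 36.6 and 31.4 CPM, so that its highest and lowest libraries were both striatum-labelled. Cry1 (chr10:85131700-85185064, minus strand) measured 14.0, 13.0, 15.7 and 15.6 CPM, and Cry2 (chr2:92403646-92434043, minus strand) 81.3, 81.4, 63.4 and 64.8 CPM. Nr1d1 (chr11:98767932-98775333, minus strand) was at 26.2, 27.9, 24.5 and 24.8 CPM and Dbp (chr7:45705088-45710203, plus strand) at 20.7, 23.0, 23.6 and 23.2 CPM. Each value rested on 814 to 11688 UMIs. Coordinates are those of GRCm38 gene annotation, and levels are compared between libraries or classes and not between genes, because the genes differ in length.

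**Figure D1:**
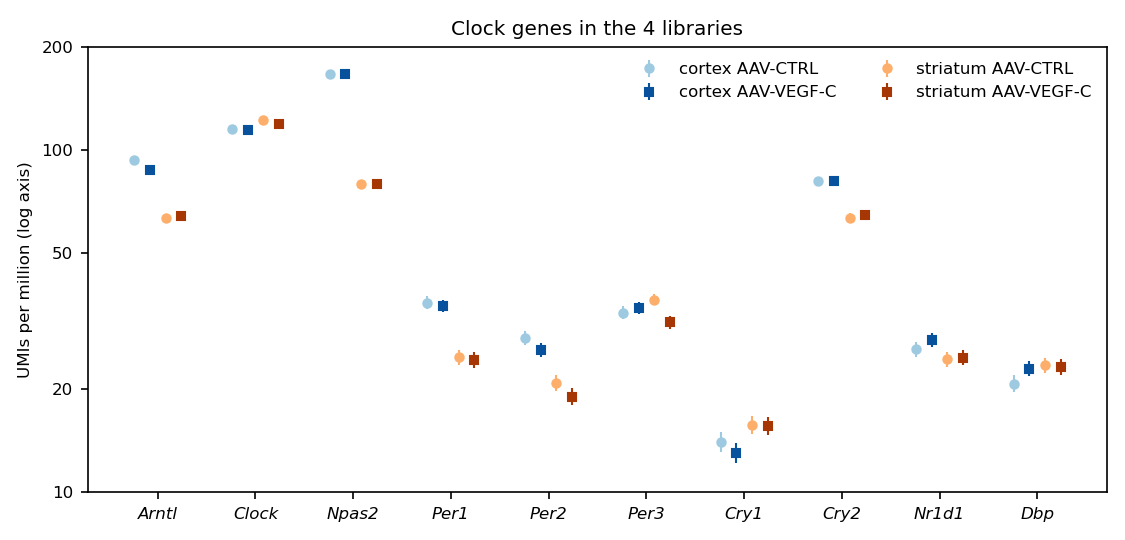
Level of each clock gene in the 4 libraries, in CPM on a log axis, with exact Poisson 95% intervals as bars. Npas2 sits near 167 under the cortex label and near 79.6 under the striatum label, while within a label the AAV-CTRL and AAV-VEGF-C points lie side by side for most genes.

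The first comparison asked whether clock gene RNA differed between AAV-VEGF-C and AAV-CTRL. Over whole libraries all 20 log2 ratios lay between -0.22 and 0.15, and 0 of 20 reached a 1.5-fold difference in either direction. Of all genes with at least 20 UMIs in the pair, 2.32% were at least 1.5-fold higher and 2.99% at least 1.5-fold lower under the cortex label, and 3.36% and 4.24% under the striatum label. The median gene was at -0.01 under the cortex label and 0.0033 under the striatum label. Clock, Npas2, Per1 and Cry2 were nearest to no difference, with ratios from -0.04 to 0.03 under both labels.

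A few small differences exceeded counting error. Under the cortex label Arntl was lower with AAV-VEGF-C by a log2 ratio of -0.10 (interval -0.15 to -0.05). Per2 was lower there by -0.12 (-0.21 to -0.02) and Dbp was higher by 0.15 (0.04 to 0.26). The intervals of 1 member thus lay above 0 and those of 2 below it, against 13.9% and 14.7% of all genes. Under the striatum label Per2 was again lower, by -0.13 (-0.25 to -0.02), and Per3 was lower by -0.22 (-0.31 to -0.13), so that 0 members lay above 0 and 2 below, against 19.4% and 19.2% of all genes. Nr1d1, driven by the same activators as Dbp, had ratios of 0.09 (-0.01 to 0.19) and 0.02 (-0.09 to 0.12). Per1 measured -0.03 and -0.02, Cry1 -0.11 and -0.01, with intervals that included 0.

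The 2 region labels did not give the same ratio for every gene. Per3 was at 0.04 under the cortex label, and the ratio under the striatum label minus that under the cortex label was -0.26 (-0.38 to -0.14). Arntl was at 0.02 under the striatum label, 0.12 above its ratio under the cortex label (0.04 to 0.20), and Dbp at -0.02 there, -0.17 from its cortex value (-0.32 to -0.02). These intervals also cover counting error only, and whether the responses differ was not tested. Per2 was the member that lay below 0 beyond counting error under both labels, but its ratio under the cortex label became 0.05 when the 10 classes were weighted equally and 0.19 when nuclei were thinned to 1000 UMIs.

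**Figure D2:**
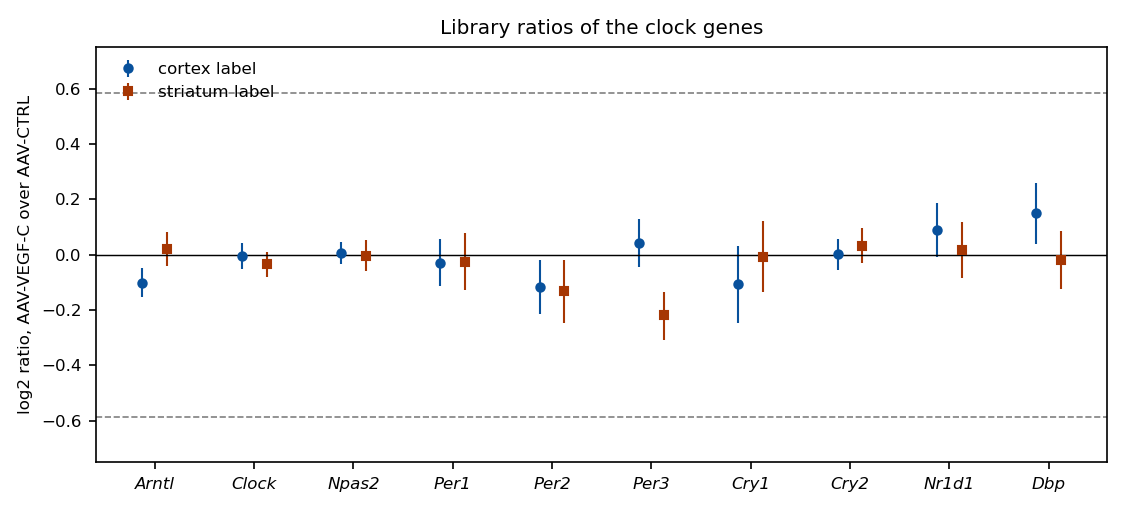
Log2 ratio of AAV-VEGF-C over AAV-CTRL for each clock gene under the 2 region labels, with exact 95% intervals for counting error as bars and dashed lines at 1.5-fold. All 20 points lie between -0.22 and 0.15, well inside the dashed lines.

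Classes of nuclei differed several-fold in Npas2, Arntl, Per2, Per3 and Nr1d1, and little in Clock and Cry1. For Npas2, the highest class in every library was the striatal projection neuron-like one, with 330, 350, 308 and 330 CPM. Here and below values stand with the cortex label first and, within a label, AAV-CTRL before AAV-VEGF-C. Astrocyte-like nuclei followed with 199, 169, 190 and 190 CPM, without overlap with the class above or below among the 10 classes. Oligodendrocyte-like nuclei had 21.1, 23.2, 7.75 and 10.1 CPM and differentiating oligodendrocyte-like nuclei 6.41 to 18.2 CPM, ranges that overlapped with those of microglia-like (9.80 to 31.2 CPM), oligodendrocyte precursor-like (17.7 to 30.2 CPM) and endothelial-like nuclei (15.0 to 31.3 CPM). Neuronal RNA was present in these glial classes, since the summed level of the 8 pan-neuronal markers was 2620 to 3997 CPM in oligodendrocyte-like nuclei against 7642 to 8089 CPM in striatal projection neuron-like nuclei; its part in the low Npas2 values was not tested. In the 2 cortex-labelled libraries, cortical excitatory neuron-like nuclei had 204 and 201 CPM of Npas2, and interneuron-like nuclei 69.4 and 69.0 CPM.

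Arntl, the partner of Npas2 and Clock, followed a similar but shallower order. Astrocyte-like nuclei had 122, 103, 91.4 and 83.5 CPM and striatal projection neuron-like nuclei 116, 102, 85.7 and 81.8 CPM, and these 2 classes overlapped. The lowest values were in oligodendrocyte-like nuclei, with 32.0, 33.2, 28.0 and 32.2 CPM, and in differentiating oligodendrocyte-like nuclei, with 18.7 to 34.2 CPM. Clock was the exception. All of its class values lay between 82.7 and 148 CPM, and each class overlapped with its neighbour. Oligodendrocyte-like nuclei (128 to 134 CPM) were at the top by mean and astrocyte-like nuclei (82.7 to 93.8 CPM) at the bottom. For Arntl, astrocyte-like nuclei were the highest class and oligodendrocyte-like nuclei the next to lowest. Differentiating oligodendrocyte-like nuclei, the lowest class of Arntl, came second for Clock with 105 to 148 CPM.

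The 3 Per genes had different profiles. Per2 was highest in oligodendrocyte precursor-like nuclei, with 42.1, 49.98, 40.01 and 42.2 CPM, and in astrocyte-like nuclei, with 37.2, 36.5, 42.0 and 45.1 CPM, which overlapped. It was at 15.3, 12.5, 7.92 and 6.60 CPM in oligodendrocyte-like nuclei and between 3.32 and 14.0 CPM in microglia-like nuclei. Per3 was highest in astrocyte-like nuclei, with 65.2, 74.4, 92.7 and 84.6 CPM, and in fibroblast-like nuclei, with 72.8, 65.9, 80.0 and 65.7 CPM. The fibroblast-like class also carried astrocyte transcripts, with a summed level of the astrocyte markers of 6129 to 8161 CPM against 18200 to 20089 CPM in the astrocyte-like class, and their part in this value was not tested. Oligodendrocyte-like nuclei had 12, 17.6, 22.8 and 14.6 CPM of Per3, which overlapped with endothelial-like (16.1 to 25.6 CPM), microglia-like (13.5 to 29.8 CPM), differentiating oligodendrocyte-like (18.7 to 25.4 CPM) and mural-like nuclei (17.6 to 26.6 CPM). Per1 was more even: striatal projection neuron-like nuclei held 38.8 to 41.6 CPM in all 4 libraries, and each class overlapped with its neighbour in the order.

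Of the cryptochromes, Cry2 was set apart in astrocyte-like nuclei, with 128, 135, 102 and 105 CPM, above every other class in all libraries. Its lowest class was the mural-like one, which pools pericytes and smooth muscle, with 36.9 to 47.8 CPM. This class also carried endothelial transcripts, with a summed level of the 13 markers of 10430 to 12679 CPM against 12226 to 12961 CPM in the endothelial-like class, and their part in its values was not tested. Cry1 had endothelial-like nuclei at 18.8 to 20.4 CPM and differentiating oligodendrocyte-like nuclei at 9.33 to 15.95 CPM at the ends of its order, and no class separated from its neighbour.

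Nr1d1 was lower in neuronal classes than in vascular classes and most glia. It was at 59.2 to 65.3 CPM in mural-like, 46.3 to 77.7 CPM in endothelial-like and 41.6 to 72.7 CPM in fibroblast-like nuclei. It was at 45.1 to 53.8 CPM in astrocyte-like nuclei but at 17.3 to 20.7 CPM in other neuron-like and 11.5 to 22.9 CPM in striatal projection neuron-like nuclei, and these neuronal ranges did not overlap with those of the 7 classes above them. Differentiating oligodendrocyte-like nuclei were as low, at 12.7 to 24.0 CPM. Dbp was at 39.5 to 45.1 CPM in astrocyte-like nuclei and at 14.3 to 19.7 CPM in other neuron-like nuclei, the lowest class of the 10, while striatal projection neuron-like nuclei (28.9 to 35.8 CPM) lay among the vascular classes.

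**Figure D3:**
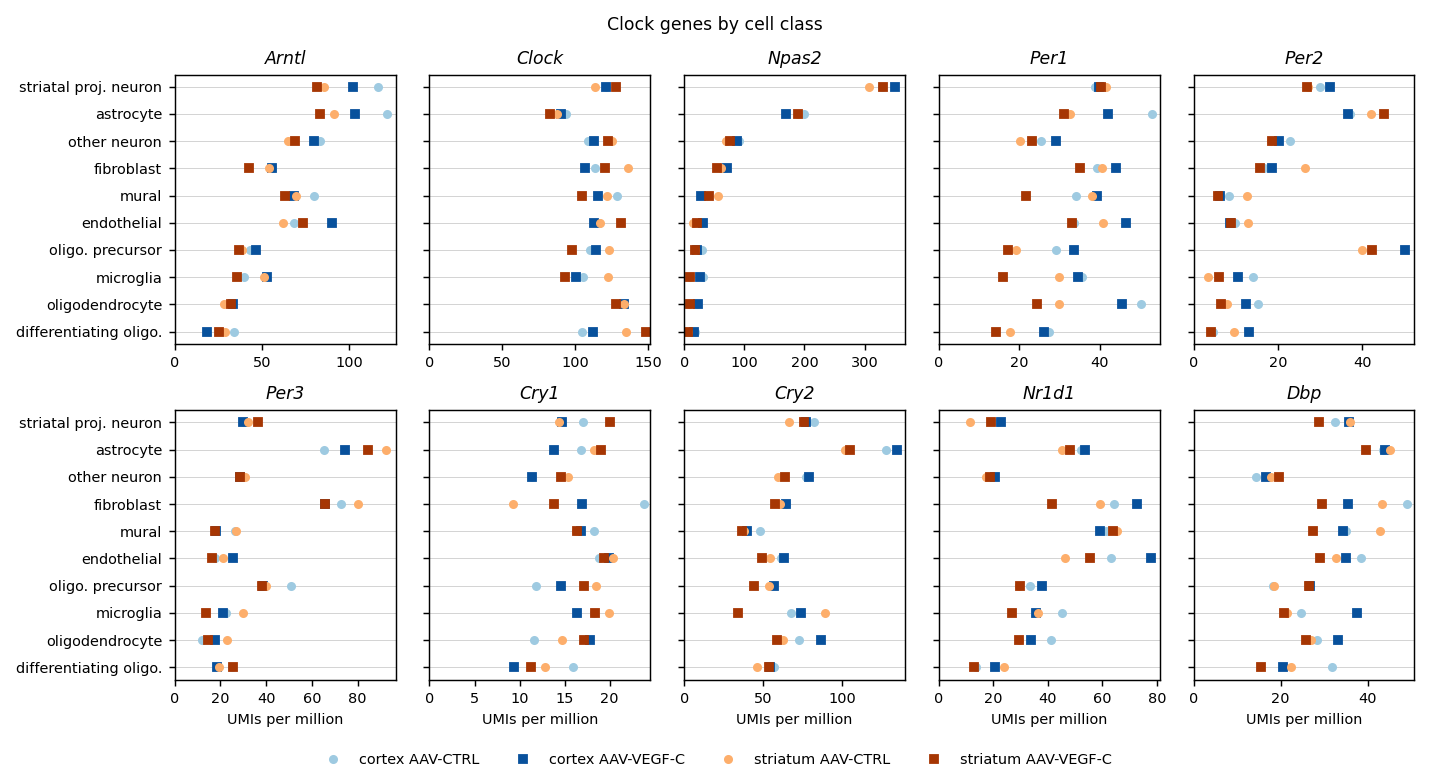
CPM of each clock gene in the 10 classes, with 1 point per library and no error bars. Npas2 reaches 308 to 350 in striatal projection neuron-like nuclei, Clock stays between 82.7 and 148 in all classes, and Nr1d1 is lowest in the neuronal and differentiating oligodendrocyte-like classes.

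The genes whose levels over the 40 sums of class and library were most like those of each member were named by Pearson's r of log2(CPM + 1), over 13302 genes with a mean of at least 5 CPM. The points share libraries and classes, and r is a description only. Per2 was most like Thrb (r = 0.90), a thyroid hormone receptor gene, and Nr1d1 most like Cbx5 (0.92), which encodes a heterochromatin protein, followed by the metallothionein gene Mt1 (0.89). For Per3 the nearest gene was Stxbp4 (0.89), for Arntl Galnt18 (0.88), for Npas2 the kinase gene Lrrk2 (0.88) and for Cry2 Lgi1 (0.81). Per1 was nearest to Tomm70a (0.77) and Dbp to Ahcyl1 (0.71). Clock and Cry1 had no gene above 0.69 and 0.65.

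Within classes the virus comparison was read gene by gene. Of 100 pairs of member and class, 95 had at least 20 UMIs in both virus groups together under each label. Under the cortex label 47 of 95 were higher with AAV-VEGF-C and 48 lower, where 50% of all gene and class pairs were higher. There were 2 at least 1.5-fold higher (Cry1 in oligodendrocyte-like and Dbp in microglia-like nuclei) and 2 lower (Arntl and Dbp in differentiating oligodendrocyte-like nuclei), against 5.31% and 5.21% of all pairs, and all 4 intervals included 0. Under the striatum label 33 of 95 (34.7%) were higher and 62 lower, where 48.8% of all pairs were higher. With nuclei thinned to 1000 UMIs, 35 were higher and 44 lower of 79. Without thinning, 1 of 95 was at least 1.5-fold higher and 10 (10.5%) at least 1.5-fold lower, against 5.13% and 5.79% of all pairs. The higher pair was Nr1d1 in striatal projection neuron-like nuclei, at 0.73 with an interval of -0.01 to 1.48. The count of 10 became 6 without the mural-like class, and under the cortex label thinning nuclei to 1000 UMIs gave 12 higher and 6 lower in place of 2 and 2.

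No member lay on the same side of 0 in all measured classes under either label. Under the striatum label Per1 was lower in 9 of 10 classes, Per3 and Dbp in 8 of 10, Arntl and Clock in 7 of 10, and Npas2 higher in 5 of 8. Of all genes with at least 7 measured classes, 2.62% were higher and 1.08% lower in every one of them under the cortex label, and 2.54% were higher and 2.54% lower in every one under the striatum label. Lower in all or all but 1 of them were 9.47% of genes under the striatum label and 5.1% under the cortex label. Under the cortex label Per3 was lower in 7 of 10, and Arntl was lower in 6 of 10; Per1, Cry2, Dbp (6 of 10) and Nr1d1 (6 of 9) were more often higher. Among targets of the BMAL1 pairs, Per1, Per3, Nr1d1 and Dbp had median ratios over classes of 0.10, -0.07, 0.08 and 0.08 under the cortex label. Under the striatum label these were -0.25, -0.21, 0.01 and -0.18. For the targets Per2, Cry1 and Cry2 the medians were -0.10, -0.12 and 0.04 under the cortex label. They were -0.14, 0.01 and -0.07 under the striatum label.

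Of the 10 pairs at least 1.5-fold lower under the striatum label, 4 were in mural-like and 3 in microglia-like nuclei. Fibroblast-like, differentiating oligodendrocyte-like and oligodendrocyte-like nuclei held 1 each. Oligodendrocyte-like nuclei were a large class, with 3500 and 3143 nuclei under that label. In mural-like nuclei 9 of 10 members were lower with AAV-VEGF-C and 4 by at least 1.5-fold. Per1 had 38.1 CPM with AAV-CTRL and 21.7 CPM with AAV-VEGF-C (63 and 37 UMIs), a log2 ratio of -0.81 (-1.44 to -0.21), but the ratio was 0.01 once nuclei were thinned to 1000 UMIs. Dbp had 42.9 and 27.5 CPM (71 and 47 UMIs), a ratio of -0.64 (-1.21 to -0.09), which was -0.34 after the same thinning. Per2 and Per3 there were at -1.12 (-2.37 to 0.03) and -0.60 (-1.32 to 0.10), so that counting error included 0. Over all genes in the class 56.5% were lower, 6.58% were at least 1.5-fold lower and the median was -0.05.

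In microglia-like nuclei under the striatum label all 8 measured members were lower with AAV-VEGF-C, where 51.3% of all genes of the class were. Cry2 had 89.5 CPM with AAV-CTRL and 34.3 CPM with AAV-VEGF-C, from 54 and 28 UMIs, a ratio of -1.38 (-2.10 to -0.70). In the cortex-labelled pair the same class had 67.7 and 73.9 CPM of Cry2, a difference in the other direction and within counting error. Per3 was at -1.15 (-2.37 to 0.01) and Per1 at -0.91 (-2.06 to 0.21) in the striatum-labelled microglia-like nuclei. Arntl and Nr1d1 were at -0.53 and -0.44 there, with intervals that included 0. In fibroblast-like nuclei 9 of 10 members were lower, with a median of -0.25, while the median over all genes of that class was -0.09 and 60.7% were lower. The median depth of a nucleus was higher in the striatum-labelled AAV-VEGF-C library than in its AAV-CTRL counterpart in each of the 10 classes. It was 1805 and 1434 UMIs in microglia-like, 3400 and 2491 UMIs in mural-like and 2021 and 1659.5 UMIs in oligodendrocyte-like nuclei. With nuclei thinned to 1000 UMIs, Cry2 in microglia-like nuclei was at -0.83 and Per1 at -1.41.

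Other neuron-like nuclei under the striatum label had Npas2 at 69.5 CPM with AAV-CTRL and 76.5 CPM with AAV-VEGF-C, a ratio of 0.14 (0.06 to 0.21). Per1 was also higher there, at 0.20 (0.06 to 0.34), Cry2 at 0.10 (0.02 to 0.18) and Arntl at 0.08 (0.01 to 0.16). In oligodendrocyte-like nuclei Per3 was lower, with 22.8 and 14.6 CPM and a ratio of -0.64 (-1.03 to -0.26). In the cortex-labelled pair it had 12 and 17.6 CPM in that class, a ratio of 0.55, opposite in direction. Astrocyte-like nuclei under the cortex label held 3 of the 4 pairs whose intervals lay below 0. Arntl was at -0.23 (-0.43 to -0.04), Npas2 at -0.23 (-0.38 to -0.08) and Per1 at -0.33 (-0.64 to -0.03), while in the striatum-labelled astrocyte-like nuclei the intervals of all 10 members included 0; the difference between labels was not tested. In striatal projection neuron-like nuclei under the cortex label Arntl was also lower, with 116 and 102 CPM and a ratio of -0.19 (-0.34 to -0.04), and its partner Npas2 was higher at 0.09 (0.0026 to 0.17). Cortical excitatory neuron-like nuclei, outside the 10 classes, were compared under the cortex label only. There 3 members had intervals below 0, among them Arntl at -0.11 (-0.18 to -0.04) and Per2 at -0.25 (-0.38 to -0.12). The 2 members with intervals above 0 were Dbp at 0.29 (0.11 to 0.48) and Nr1d1 at 0.26 (0.10 to 0.41). The share of all genes of this class with intervals above or below 0 was not computed, so these counts have no background beside them. In this class 6 of 10 members were lower, where 46.4% of all genes were. Over all pairs of the 10 classes, 1 interval lay above 0 and 4 below under the cortex label (1.05% and 4.21%, against 5.3% and 4.84% of all pairs), and 4 above and 4 below under the striatum label (4.21% each, against 7.34% each).

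**Figure D4:**
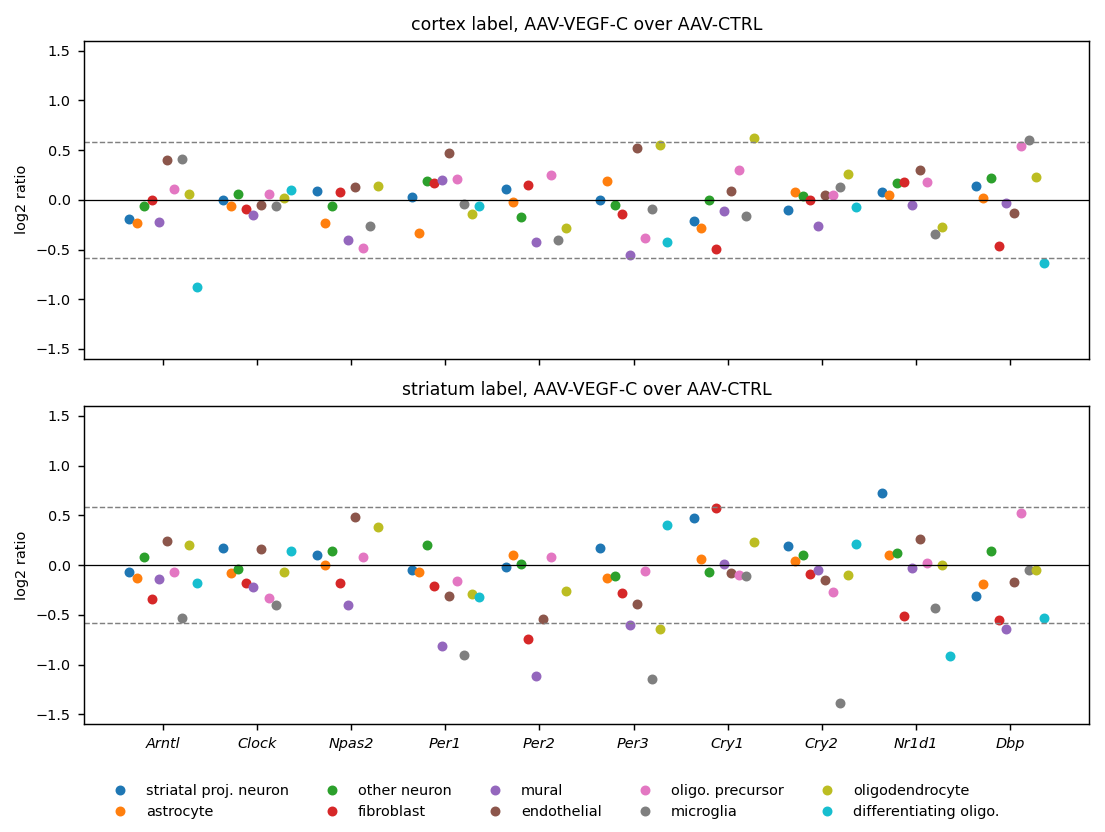
Log2 ratio of AAV-VEGF-C over AAV-CTRL of each clock gene in the 10 classes (1 point per class with at least 20 UMIs in the pair, no error bars), above for the cortex label and below for the striatum label, with dashed lines at 1.5-fold. Points lie on both sides of 0 for each gene, and the lowest is Cry2 in microglia-like nuclei under the striatum label at -1.38.

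The second comparison set the striatum label against the cortex label within each virus. Npas2 had a log2 ratio of -1.07 in AAV-CTRL (-1.11 to -1.02) and of -1.07 in AAV-VEGF-C (-1.12 to -1.03), the only member past 1.5-fold in both viruses, where 9.82% and 9.76% of all genes were at least 1.5-fold lower and 20.7% and 21.2% at least 1.5-fold higher. Arntl was at -0.57 and -0.45, Per1 at -0.53 and -0.52, Per2 at -0.44 and -0.45 and Cry2 at -0.36 and -0.33, with all intervals below 0. In AAV-CTRL Arntl was also past 1.5-fold when mitochondrial and the top 50 genes were left out of the total (-0.62) and after thinning (-0.59), and with equal class weights 0 members were past it in either virus. Nr1d1 was at -0.10 (-0.20 to 0.00) and -0.17 (-0.27 to -0.07). Clock was at 0.08 and 0.05 and Cry1 at 0.16 and 0.26, with intervals above 0. In AAV-CTRL the intervals of 5 members lay below 0 and of 4 above it, against 18.9% and 48.5% of all genes, and in AAV-VEGF-C 7 lay below and 2 above, against 18.4% and 50.2%. The median gene stood at 0.18 in AAV-CTRL and 0.20 in AAV-VEGF-C, so that Clock lay below the median gene and the lower members were lower still relative to it. Per3 and Dbp were not alike in the 2 viruses, with Per3 at 0.13 and -0.13 and Dbp at 0.18 and 0.01.

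With equal weight for each of the 10 classes, which leaves out cortical excitatory neuron-like nuclei, the ratio of Npas2 was -0.21 in AAV-CTRL and -0.12 in AAV-VEGF-C. In the striatal projection neuron-like class it had 330 and 308 CPM with AAV-CTRL and 350 and 330 CPM with AAV-VEGF-C, cortex label first, and in astrocyte-like nuclei 199 and 190 CPM, then 169 and 190 CPM. It was lower under the striatum label in oligodendrocyte-like nuclei, at -1.44 (-2.03 to -0.86) and -1.20 (-1.70 to -0.70). The summed cortical excitatory marker level, which reports RNA of other cells in that class, was 1519 and 1406 CPM there under the cortex label and 307 and 269 CPM under the striatum label, and its part in this difference was not tested.

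For Arntl the difference remained below 0 with classes weighted equally, at -0.23 and -0.26. Astrocyte-like nuclei had Arntl ratios of -0.41 (-0.61 to -0.21) and -0.31 (-0.52 to -0.10), and striatal projection neuron-like nuclei -0.44 (-0.67 to -0.22) and -0.32 (-0.57 to -0.08). Per1 was at -0.24 and -0.57 with equal weights, and in oligodendrocyte-like nuclei at -0.75 (-1.08 to -0.42) and -0.90 (-1.23 to -0.56). Per2 was at -0.0042 and -0.21 with equal weights. Cry2 was lower under the striatum label in 9 of 10 classes with AAV-CTRL and in 10 of 10 with AAV-VEGF-C. Arntl was lower in 9 of 10 with each virus. Per1, Nr1d1 and Dbp were lower in 6, 8 and 5 of 10 with AAV-CTRL and in 9 of 10 each with AAV-VEGF-C. Clock was lower in 3 and 5 of 10 and Per3 in 2 and 7 of 10. Of genes with at least 7 measured classes, 6.22% and 6.38% were lower in all of them and 11.7% in all or all but 1 in each virus. Per3 was higher under the striatum label in AAV-CTRL astrocyte-like nuclei, with 65.2 and 92.7 CPM and a ratio of 0.51 (0.27 to 0.74). Different clusters held most nuclei of some classes under the 2 labels (cluster 2 against cluster 5 for astrocyte-like, cluster 6 against cluster 1 for oligodendrocyte-like, cluster 17 against cluster 0 for other neuron-like nuclei), so that these values compare different populations, and region and make-up cannot be told apart. In all, 39 of 96 pairs of member and class were higher under the striatum label with AAV-CTRL and 21 of 96 with AAV-VEGF-C, where 56.6% and 56.3% of all pairs were. At least 1.5-fold lower were 11 and 14 pairs, against 10.2% and 10.4% of all pairs, and at least 1.5-fold higher 5 and 1, against 14.1% and 13.7%.

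**Figure D5:**
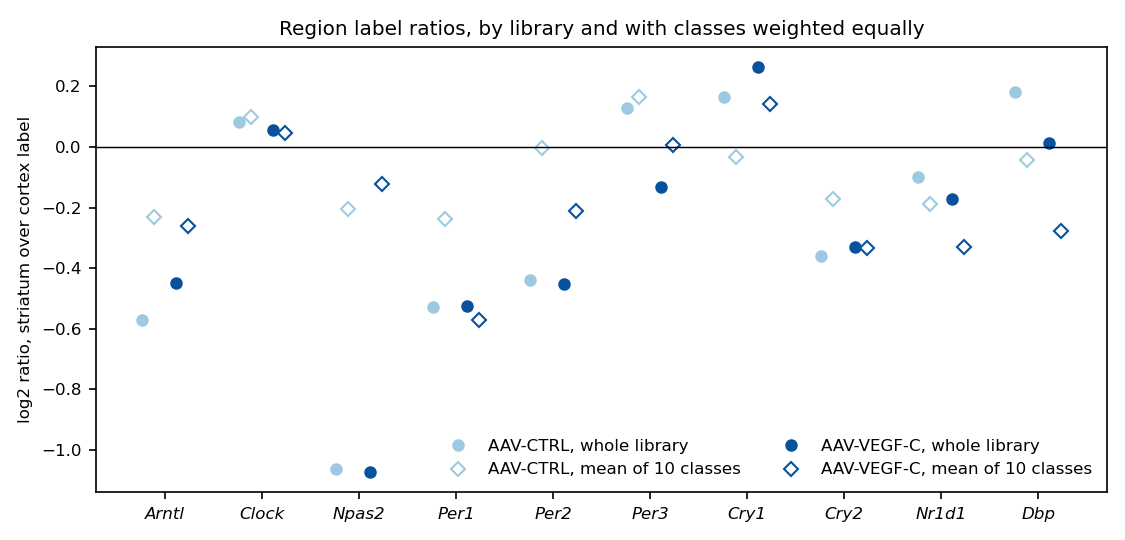
Log2 ratio of the striatum label over the cortex label for each clock gene within AAV-CTRL and AAV-VEGF-C, for whole libraries (filled circles) and for the mean of the 10 classes (open diamonds), without error bars. Npas2 moves from -1.07 to -0.21 and -0.12 when classes have equal weight, while Arntl stays below 0 in both.

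Further clock genes were read from a list of 20 (nuclear receptors of the ROR and REV-ERB families, the repressors Bhlhe40, Bhlhe41 and Ciart, the DBP relatives Tef and Hlf, and kinases and ubiquitin ligases that set the life of PER and CRY). In the virus comparison 0 of 20 passed 1.5-fold under either label, with medians of -0.04 and -0.02. The largest differences under the cortex label were in Fbxl21, a ubiquitin ligase gene of cryptochromes, at 0.28 (-0.06 to 0.63), in Bhlhe40 at -0.21 (-0.31 to -0.11) and in Nfil3, a repressor of D-box genes, at -0.21 (-0.42 to -0.0019). In the striatum-labelled pair Fbxl21 was at 0.21 (-0.03 to 0.45) and Timeless at -0.19 (-0.51 to 0.12). Between region labels 3 of 20 were at least 1.5-fold higher and 0 lower in each virus, where 20.7% and 21.2% of all genes were higher and 9.82% and 9.76% lower by that much. Among them were Bhlhe41 (0.88 and 0.96) and Fbxl21 (1.06 and 0.99), named after their values were seen.

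Genes that respond to glucocorticoids, hormones with a daily rhythm, were read beside the clock. Of 12 genes, 0 passed 1.5-fold between the viruses, and the medians were -0.04 and -0.11. Fkbp5, a chaperone gene of the receptor, was under the cortex label at -0.30 (-0.38 to -0.22), Nfkbia at -0.30 (-0.42 to -0.18) and the metallothionein gene Mt1 at 0.28 (0.24 to 0.32). Zbtb16 was under the striatum label at -0.45 (-0.51 to -0.39), Cdkn1a at -0.29 (-0.45 to -0.13) and Pdk4 at -0.21 (-0.62 to 0.19). Fkbp5 was lower there too, at -0.16 (-0.24 to -0.08). The list went both ways between region labels, with 1 gene at least 1.5-fold higher in each virus and 2 and 3 lower, beside 20.7% and 21.2% of all genes higher and 9.82% and 9.76% lower.

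Activity-induced genes, which neurons switch on soon after stimulation, were lower in the striatum-labelled libraries. Of 12 genes, 9 in AAV-CTRL and 8 in AAV-VEGF-C were at least 1.5-fold lower, against 9.82% and 9.76% of all genes, and 0 higher, with medians of -1.55 and -1.47. Egr1, one of them, was among the 10 leading genes of a cluster of cortical excitatory neuron-like nuclei, a class with 6045 and 7086 nuclei in the cortex-labelled libraries and 284 and 87 in the striatum-labelled ones, and the part of this in the list's ratios was not tested. Between viruses 0 of 12 passed 1.5-fold. In the cortex-labelled pair 11 of 12 were lower with AAV-VEGF-C and 8 had intervals below 0 (14.7% of all genes did), with a median of -0.18; Btg2 was at -0.38 (-0.50 to -0.25), Nr4a1 at -0.34 (-0.40 to -0.27) and Dusp1 at -0.28 (-0.39 to -0.18). The median under the striatum label was -0.03, with Egr3 at -0.31 (-0.49 to -0.12), Fos at 0.20 (0.03 to 0.37) and Npas4 at 0.16 (-0.07 to 0.39).

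Genes of the suprachiasmatic nucleus were read in all libraries because the tissue could hold that nucleus. Avp, the vasopressin gene, had 58 and 75 UMIs in the cortex-labelled libraries and 3173 and 3511 UMIs in the striatum-labelled ones. Lhx1, a homeobox gene of that nucleus, had 14, 19, 768 and 815 UMIs, Vipr2, the receptor gene for its peptide VIP, had 51, 85, 821 and 859 UMIs, and Six6 had 0, 1, 42 and 46 UMIs. In AAV-CTRL 7 of the 9 listed genes were at least 1.5-fold higher under the striatum label. Six6, with 0 UMIs under the cortex label there, had no finite ratio and was not among the 7. In AAV-VEGF-C 7 of the 8 genes with at least 20 UMIs in the pair were that much higher. Of all genes 20.7% and 21.2% were, a share that includes genes with 0 UMIs under the cortex label. Grp went the other way, with 5.69 and 6.93 CPM under the cortex label and 4.72 and 5.12 CPM under the striatum label. Nms had only 3, 3, 26 and 16 UMIs and Prok2 31, 32, 67 and 59 UMIs. In the striatum-labelled libraries Avp was found in every one of the 10 classes, at 17.7 to 84.4 CPM in AAV-CTRL and 22.5 to 78.4 CPM in AAV-VEGF-C, glial and vascular classes included. Avp and Lhx1 are also made in other hypothalamic nuclei, and Vipr2 was among the 10 leading genes of a cluster of Slc17a6 glutamatergic neuron-like nuclei counted within other neuron-like nuclei. Between viruses the largest ratios under the cortex label were Vipr2 at 0.47 (-0.05 to 1.00), Grp at 0.28 (0.08 to 0.49) and Rgs16 at 0.27 (-0.06 to 0.61). In the striatum-labelled pair Rgs16 was at 0.27 (0.17 to 0.37), Avp at 0.24 (0.18 to 0.31) and Six6 at 0.23 (-0.41 to 0.87). Of the 9 genes only Nms was past 1.5-fold there, from 26 and 16 UMIs, with an interval that included 0.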

How the data were processed

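Single nuclei of pooled, cryopreserved brain tissue were captured with the 10x Genomics 3′ version 3 chemistry. The authors deposited UMI counts per gene and nucleus, aligned to mm10 with Cell Ranger (5.0.1 in the matrix headers, 5.1.1 in the submitters' processing notes); whether intronic reads were counted was not given in the sources used here. The files held 78728 nuclei. From these deposited counts, doublets were called with Scrublet (scanpy 1.11.5, expected rate 8%; 4.09% to 7.64% of nuclei called per library) and left out, with clusters of at least 40% called doublets. This left 72931 nuclei and 58025976 to 69857040 UMIs per library. Nuclei of all libraries were clustered together (5000 variable genes without the members and listed genes, 50 principal components, 15 neighbours, Leiden resolution 1.2), which gave 73 clusters. Clusters were named from fixed markers (at least 3 of them, and 30% of the list, that were 2-fold higher and found in 10% of nuclei), and the naming rule was revised after the clusters were seen; 1179 nuclei stayed without a class.

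UMIs were summed per class and library and scaled to counts per 1000000 UMIs (CPM). Levels have exact Poisson and log2 ratios exact conditional binomial 95% intervals (scipy 1.17.1), which cover counting error only. The script was tested on simulated data with known ratios. Each group held 1 library, so no p-value was computed. Classes needed 100 nuclei in each of the 4 libraries, and ratios 20 UMIs in the pair. All members were named; of other lists, the 3 genes of largest absolute log2 ratio under a label with at least 50 UMIs, and any past 1.5-fold under both labels; 1 gene that this rule names is not reported here. The members, lists and tests were chosen with earlier results of these data known. Promoter sequences and gene positions came from RefSeq (GRCm38.p6) and from GENCODE annotation of GRCm38; Per2 had no promoter entry. Alternatives kept all barcodes, thinned nuclei to 1000 UMIs, left mitochondrial and the top 50 genes out of the total, weighted classes equally, centred on the median gene, or clustered each library alone. Thinning also left out nuclei with under 1000 UMIs. These numbered 636 with AAV-CTRL and 703 with AAV-VEGF-C under the cortex label, and 1492 and 425 under the striatum label. Without the mural-like class, with all classes of 100 nuclei in a pair, and with classes of at least 200 nuclei were added after seeing the data.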

Additional observations from a re-analysis of the deposited data

Results flagged for a closer look

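For 4 clock genes the difference between AAV-VEGF-C and AAV-CTRL had opposite signs under the cortex and the striatum label, and with 1 library per group this difference was not tested. The log2 ratio under the striatum label minus that under the cortex label was 0.12 for Arntl, -0.0089 for Npas2, -0.26 for Per3 and -0.17 for Dbp. For Npas2 both ratios lay within 0.01 of 0 and the counting interval of the difference was -0.08 to 0.06. For Per3 the interval was -0.38 to -0.14, for Arntl 0.04 to 0.20 and for Dbp -0.32 to -0.02, which cover counting error only. With equal weight for each class the ratio of Per3 under the cortex label was -0.06, that of Arntl under the striatum label -0.08 and that of Dbp under the cortex label 0.01.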

How the results depend on the processing

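No paired analysis was possible because no result comes from a test: each group held 1 library and the labels number no replicates. All 20 virus ratios over whole libraries moved by less than their counting interval when all barcodes were kept, when the total left out mitochondrial and the top 50 genes, and when ratios were centred on the median gene, and 0 of 20 passed 1.5-fold under any of the 5 alternatives. Thinning nuclei to 1000 UMIs gave, in the cortex-labelled pair, Npas2 -0.0407, Per2 0.19 and Cry2 0.0620, and equal class weights gave Npas2 -0.0502, Per2 0.0538, Per3 -0.0571 and Dbp 0.0144, so that Npas2 and Per2 changed sign under both and Per3 under equal weights. In the striatum-labelled pair, thinning gave Clock -0.0816, Npas2 -0.0846 and Cry2 -0.0364, and equal weights gave Arntl -0.0798, Per1 -0.28, Cry2 -0.13 and Dbp -0.22, with a change of sign for Cry2 under both and for Arntl. For the region ratios in AAV-CTRL, equal weights gave Arntl -0.23, Npas2 -0.21, Per1 -0.24, Per2 -0.0042, Cry2 -0.17, and with a change of sign Cry1 -0.0333 and Dbp -0.0416. Thinning gave Npas2 -0.99, Per2 -0.10 and Cry1 -0.0135 (sign changed), and the reduced total Clock 0.0322 and Npas2 -1.12. In AAV-VEGF-C, equal weights gave Arntl -0.26, Npas2 -0.12, Per2 -0.21, Nr1d1 -0.33 and, with a change of sign, Dbp -0.28 and Per3 0.0072, and thinning gave Per3 -0.23, Cry2 -0.41 and Dbp -0.10 (sign changed). Within classes under the cortex label, pairs at least 1.5-fold higher numbered 1 when each library was clustered alone and 12 after thinning, and pairs at least 1.5-fold lower 6 after thinning and 0 without classes under 200 nuclei. For the striatum label, higher pairs numbered 4 with libraries clustered alone, 3 after thinning and 2 after centring, and lower pairs 6 without the mural-like class. Per1 in striatum-labelled mural-like nuclei became 0.0112 after thinning. Thinning leaves fewer UMIs and drops nuclei with under 1000 UMIs, and equal weights let small classes count as much as large ones. Other causes were not tested. The sets without the mural-like class, without classes under 200 nuclei and with all classes of 100 nuclei in a pair were chosen after seeing the data.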
